A study of Homo sapiens with 18 samples.

Results

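A set of 8 genes that cells switch on in answer to signals of the TGF-beta family was followed across 6 groups of U2OS cells: the inhibitor of DNA binding genes ID1, ID2, ID3 and ID4, and the feedback genes SMAD6, SMAD7, BAMBI and SKIL. They were taken by name, 8 of the 35579 genes to which a deposited transcript could be assigned, and all 8 had enough counts to be among the 16786 genes tested. Ligands of the TGF-beta family bind pairs of receptor kinases at the cell surface, which phosphorylate SMAD proteins that then enter the nucleus and act on target genes. The BMP branch works mainly through SMAD1, SMAD5 and SMAD9, and the TGF-beta and activin branch through SMAD2 and SMAD3, with SMAD4 as the common partner. Among the targets of both branches are proteins that damp the same signal, so the RNA of these feedback genes is widely read as a sign of pathway output. ID proteins are helix-loop-helix proteins without a DNA-binding region. They hold E proteins such as TCF3, TCF4 and TCF12 away from DNA, and ID1 and ID3 are classical immediate targets of BMP signals, also in bone-forming cells.

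The cells were U2OS, a human osteosarcoma line, grown with serum, and poly(A) RNA was sequenced from 3 libraries in each of 6 groups, 18 in all. All lines carried an integrated mCherry construct. The control line carried mCherry alone, and the other lines carried mCherry fused to EWS-FLI1, to EWS-FLI1mut or to EWS(YS37)-FLI1. In Ewing sarcoma, EWS-FLI1 acts as an oncogenic transcription factor that joins the amino-terminal part of EWSR1 to the ETS DNA-binding part of FLI1. The remaining groups were mCherry-EWS-FLI1 cells given 7.5 µM LY2835219 for 6 h or 24 h. LY2835219 is abemaciclib, which blocks CDK4 and CDK6, kinases that drive entry into the cell cycle. Whether the changes at this dose came through CDK4 and CDK6 was not tested. The titles and the design text give these times, whereas the treatment protocol in the labels gives others, so the labels conflict. The labels call the libraries biological replicates. They do not describe the change in EWS-FLI1mut, do not say whether a line was a clone or a pool, name no promoter and mention no vehicle. Of the 2 library kits they list, neither is tied to particular libraries. No line of a construct is labelled as made more than once, so the standard errors and p-values hold no spread from line to line.

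The libraries held 16261034 to 20270637 estimated counts each. FLI1 averaged 0.546 CPM (counts scaled to library size with TMM factors) in mCherry cells, 642 with EWS-FLI1mut, 1019 with EWS(YS37)-FLI1, 247 with EWS-FLI1, and 406 and 236 at 6 h and 24 h of LY2835219. Reads of the construct and of the endogenous gene cannot be told apart, and the part of these unequal construct levels in the comparisons below was not tested. Of 10 mesenchymal and osteoblast markers, 6 averaged at least 1 TPM (a length-normalized share of all transcripts) in every group, and the bone matrix gene IBSP was at 0 in every library of 4 groups. The summed TPM of 8 epithelial markers moved with the groups, at 25.6 to 29.3 in mCherry, 27.0 to 37.2 in EWS-FLI1mut, 7.29 to 12.4 in EWS(YS37)-FLI1, 44.7 to 52.7 in EWS-FLI1, 30.5 to 32.8 at 6 h and 10.5 to 12.9 at 24 h. Among these markers KRT14 moved most, averaging 17.5, 20.7, 3.47, 34.8, 24.8 and 4.37 TPM in the same order of groups. In that order EPCAM averaged 5.53, 5.80, 3.18, 4.98, 3.41 and 3.00 TPM. KRT5 averaged 2.35, 3.25, 1.60, 3.66, 1.86 and 2.42 TPM, and CDH1 1.33, 2.37, 0.733, 3.04, 0.498 and 1.44 TPM. The size of the sum thus follows mainly KRT14. Among the untreated groups KRT14, EPCAM, KRT5 and CDH1 were each lowest with EWS(YS37)-FLI1. KRT19 was the only epithelial marker at 0 in a whole group, EWS(YS37)-FLI1. Sums stayed at or below 8.34 TPM for 8 blood cell markers, with CD3E at 0 throughout, and at or below 16.9 TPM for 8 endothelial markers. The mitochondrial share of counts was 4.80 ± 0.277% (SD, n = 3) in untreated EWS-FLI1 cells, 6.14 ± 0.146% at 6 h and 6.16 ± 0.380% at 24 h. The part of the epithelial markers and of the mitochondrial share in the results below was not tested. In bulk RNA, fewer cells expressing a gene and less RNA per expressing cell cannot be told apart.

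Per unit of length, ID1 was the most abundant of the 8 genes in mCherry cells, at 280.3 ± 25.0 TPM (SD, n = 3). ID3 followed at 118 ± 6.14 TPM and SKIL at 73.0 ± 0.813 TPM. ID2, SMAD7 and SMAD6 came next at 23.6 ± 2.96, 21.1 ± 2.42 and 19.6 ± 1.15 TPM, and the ranges of their libraries overlapped. BAMBI at 6.63 ± 0.419 TPM and ID4 at 4.16 ± 0.316 TPM were the lowest. In stretches of 31 bases of their transcripts, ID1, ID3, ID4, SMAD6, SMAD7 and BAMBI shared none with another gene, ID2 shared 80 of 2169 and SKIL 115 of 7891, so the estimates of ID2 and SKIL could take in a small part of reads from elsewhere.

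**Figure D1:**
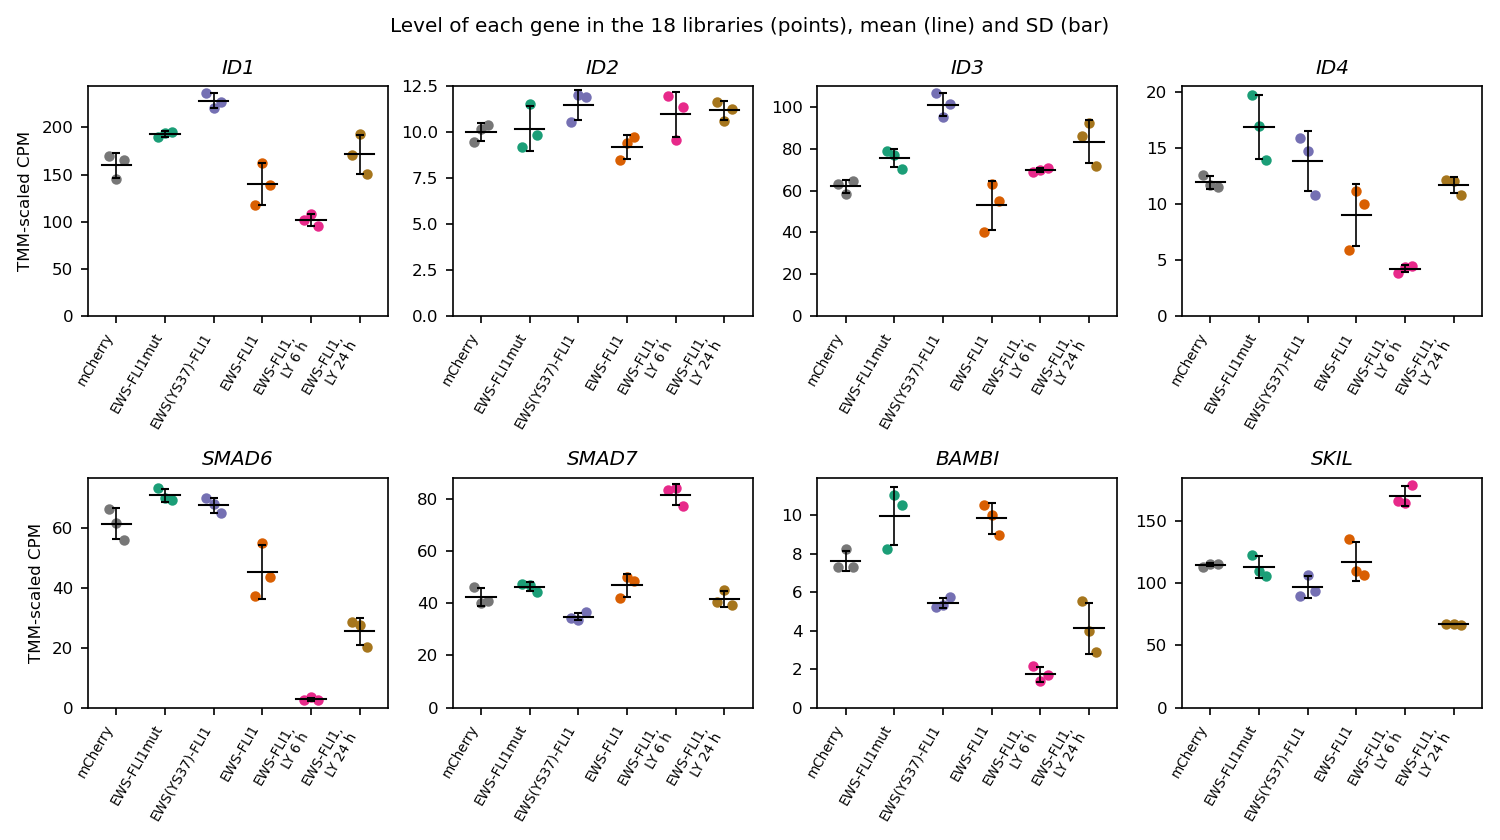
Level of each of the 8 genes in the 18 libraries, in TMM-scaled CPM on axes that start at 0, by group; points are libraries, lines are group means and bars are SD. SMAD6 lies between 2.42 and 3.41 CPM in the 6 h LY2835219 libraries and at or above 20.4 CPM in every other library, while ID2 stays between 8.48 and 12.1 CPM throughout.

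The promoters of SMAD6 and BAMBI, whose RNA fell farthest at 6 h of LY2835219, of SKIL, which rose and then fell, and of ID1, a classical BMP target, are shown because SMAD proteins bind short DNA words: SMAD3 and SMAD4 the short box GTCT or its complement AGAC, which together form the palindrome GTCTAGAC, and SMAD1, SMAD5 and SMAD4 the GC-rich word GGCGCC. The sequences are from RefSeq, build GRCh38.p14, plus strand, read 5′ to 3′, with these words in capitals: SMAD6 at chr15:66701986-66702235, BAMBI at chr10:28677271-28677356, SKIL at chr3:170357465-170357692 and ID1 at chr20:31605039-31605288. Each window ends within 15 bases after the first annotated exon base.
SMAD6: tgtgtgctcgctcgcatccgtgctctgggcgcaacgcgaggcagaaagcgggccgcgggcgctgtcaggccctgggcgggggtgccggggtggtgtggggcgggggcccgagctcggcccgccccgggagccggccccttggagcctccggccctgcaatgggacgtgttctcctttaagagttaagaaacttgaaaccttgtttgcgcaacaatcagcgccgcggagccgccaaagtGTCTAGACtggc
BAMBI: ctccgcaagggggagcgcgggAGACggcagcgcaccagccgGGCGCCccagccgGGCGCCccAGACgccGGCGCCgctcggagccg
SKIL: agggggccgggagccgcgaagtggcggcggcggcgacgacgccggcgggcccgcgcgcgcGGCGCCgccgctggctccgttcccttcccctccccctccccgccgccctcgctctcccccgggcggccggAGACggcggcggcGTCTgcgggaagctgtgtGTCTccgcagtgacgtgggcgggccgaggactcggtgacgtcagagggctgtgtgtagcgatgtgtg
ID1: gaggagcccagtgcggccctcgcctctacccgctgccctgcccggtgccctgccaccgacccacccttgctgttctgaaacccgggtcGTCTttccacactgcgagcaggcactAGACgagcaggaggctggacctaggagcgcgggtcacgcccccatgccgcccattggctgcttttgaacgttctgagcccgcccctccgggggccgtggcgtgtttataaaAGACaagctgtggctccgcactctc

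The 250 bases before the RefSeq start site were searched on both strands. The palindrome GTCTAGAC was present in the SMAD6 window and in no window of the other members. It was present in 64 of 35116 promoters of the same length (0.182%). The windows of ID2, ID3 and SMAD7 lie wholly inside the annotated genes, so bases before those gene starts were not searched. The searched BAMBI window runs from 28677271 to 28677520 while the gene starts at 28677342, so most of it lies inside the gene. GGCGCC occurred 3 times in BAMBI and once in SKIL, and in 16.4% of all promoters. The box GTCT is common: 77.5% of all promoters hold it, and each of the 8 genes had at least 1, with 4 in BAMBI, 3 in SKIL, 3 in ID1 and 2 in SMAD6. The palindrome contains 2 of these boxes, the ones counted in SMAD6. The tandem word GGAAGGAA, which EWS-FLI1 is known to bind when repeated, was in none of the members' windows and in 3.06% of all promoters. The ETS core CCGGAA, present in 14.5% of all promoters, was found in 1 of the SMAD7 windows alone among the members, and the E-box CANNTG, to which E proteins bind, in windows of ID2, ID4 and SMAD7 and in 61.8% of all promoters. These matches describe letters and not occupancy.

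The question of the untreated groups is how each construct moved these genes. Against mCherry, EWS-FLI1 cells had 1 of the 8 genes called at an adjusted p under 0.05, SMAD6, which was lower, where 21.1% (11.1% higher, 9.95% lower) of all genes tested were called. EWS-FLI1mut cells had 0 of 8, where 7.15% (3.53% higher, 3.62% lower) of all genes were called. EWS(YS37)-FLI1 cells had 4 of 8, with ID1 and ID3 higher and SMAD7 and SKIL lower, where 21.7% (11.5% higher, 10.2% lower) of all genes were called. For EWS-FLI1mut the 0 comes from edgeR. At an unadjusted p under 0.05 the count was 4, and DESeq2 called 1, ID1. For the 8 genes the median log2 difference came to -0.16, 0.24 and 0.17 for the 3 constructs in this order, against -0.02, 0.00 and 0.00 for all genes. The 3 comparisons share the mCherry libraries, so each is read by itself. Among the EWS-FLI1 libraries, replicate 1 was the lowest for ID1, ID2, ID3, ID4, SMAD6 and SMAD7 and the highest for BAMBI and SKIL, and results that change without it are given with that value.

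SMAD6, the inhibitory SMAD of the BMP branch, blocks BMP receptors and SMAD1. Its gene (ENSG00000137834.14, chromosome 15, 66702228 to 66782848, plus strand, hg38) gave 66.5, 61.7 and 56.1 CPM in the mCherry libraries and 37.1, 55.0 and 43.5 CPM in the EWS-FLI1 libraries. With EWS-FLI1mut the values were 73.4, 70.0 and 69.5 CPM, and with EWS(YS37)-FLI1 70.0, 68.1 and 65.0 CPM. All 3 EWS-FLI1 libraries were below all libraries of the other untreated groups, although the highest EWS-FLI1 library was close to the lowest mCherry library. The log2 difference of EWS-FLI1 from mCherry was -0.44 ± 0.11 (edgeR adjusted p = 0.007), and EWS-FLI1mut and EWS(YS37)-FLI1 differed from mCherry by 0.21 ± 0.11 (edgeR adjusted p = 0.304) and 0.14 ± 0.11 (edgeR adjusted p = 0.413). The call against mCherry was lost without EWS-FLI1 replicate 1, at -0.32 (edgeR adjusted p = 0.0628), and with transcript length offsets, at -0.39 (edgeR adjusted p = 0.317).

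ID1 (ENSG00000125968.8, chromosome 20, 31605283 to 31606515, plus strand) gave 169.7, 145 and 166 CPM in mCherry cells and 118, 162 and 139 CPM with EWS-FLI1. It gave 189.6, 194 and 195 CPM with EWS-FLI1mut and 237, 221 and 227 CPM with EWS(YS37)-FLI1. The EWS(YS37)-FLI1 libraries were the highest of the untreated set and did not overlap with any other group, and those of EWS-FLI1 and mCherry overlapped. EWS(YS37)-FLI1 was above mCherry by 0.51 ± 0.09 (edgeR adjusted p = 0.000182) on the log2 scale. The difference of EWS-FLI1mut was 0.27 ± 0.09 (edgeR adjusted p = 0.074) and that of EWS-FLI1 -0.20 ± 0.09 (edgeR adjusted p = 0.134), and neither was called. Leaving out EWS-FLI1 replicate 2, or the filter on low counts, gave a call of lower ID1 in EWS-FLI1 cells (edgeR adjusted p = 0.0219 and 0.0254). Fits by DESeq2, with no scaling factors, with no filter and of these 2 groups alone called ID1 higher with EWS-FLI1mut.

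ID3 (ENSG00000117318.8, chromosome 1, 23557918 to 23559794, minus strand) is a close relative of ID1 and also an early BMP target. The mCherry libraries gave 63.1, 58.5 and 64.4 CPM and the EWS(YS37)-FLI1 libraries 106, 95.3 and 101 CPM, a gap with no overlap and a log2 difference of 0.70 ± 0.11 (edgeR adjusted p = 3.3e-05). EWS-FLI1mut libraries lay between them at 78.8, 77.2 and 70.5 CPM, and their difference from mCherry was 0.28 ± 0.11 (edgeR adjusted p = 0.12). It was called with no filter on low counts (edgeR adjusted p = 0.00434) and in a fit of the compared groups alone (edgeR adjusted p = 0.0167). EWS-FLI1 libraries spread widely, at 40.4, 63.3 and 55.2 CPM, with replicate 1 the lowest of all 18 libraries, and differed from mCherry by -0.23 ± 0.11 (edgeR adjusted p = 0.147). That difference was called without EWS-FLI1 replicate 2 (edgeR adjusted p = 0.0226) and with no filter on low counts (edgeR adjusted p = 0.0227).

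ID4 (ENSG00000172201.11, chromosome 6, 19837386 to 19840684, plus strand) was low and variable. It gave 12.6, 11.7 and 11.5 CPM in mCherry cells, 19.7, 17.0 and 14.0 CPM with EWS-FLI1mut, 15.9, 14.7 and 10.8 CPM with EWS(YS37)-FLI1 and 5.93, 11.2 and 9.99 CPM with EWS-FLI1. Every EWS-FLI1 library was below every mCherry and every EWS-FLI1mut library, yet no construct differed from mCherry at the threshold. The log2 differences were -0.40 ± 0.18 (edgeR adjusted p = 0.126) for EWS-FLI1, 0.50 ± 0.18 (edgeR adjusted p = 0.0947) for EWS-FLI1mut and 0.21 ± 0.18 (edgeR adjusted p = 0.455) for EWS(YS37)-FLI1. Higher ID4 with EWS-FLI1mut was called with no filter on low counts (edgeR adjusted p = 0.0261) and in a fit of those groups alone (edgeR adjusted p = 0.0317). ID2 (ENSG00000115738.9, chromosome 2, 8678845 to 8684453, plus strand) was the steadiest of the family. Its untreated libraries ran from 8.48 to 12.1 CPM, and its differences from mCherry were -0.12 ± 0.13 (edgeR adjusted p = 0.566), 0.03 ± 0.13 (edgeR adjusted p = 0.94) and 0.20 ± 0.13 (edgeR adjusted p = 0.284) for the same 3 constructs.

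SMAD7 is the inhibitory SMAD that acts on TGF-beta and activin receptors as well as BMP receptors. The gene (ENSG00000101665.9, chromosome 18, 48919853 to 48952052, minus strand) gave 46.2, 40.0 and 41.0 CPM in mCherry cells and 34.5, 33.7 and 36.5 CPM with EWS(YS37)-FLI1, a log2 difference of -0.28 ± 0.08 (edgeR adjusted p = 0.0125) with no overlap. It gave 47.5, 47.2 and 44.4 CPM with EWS-FLI1mut and 42.0, 50.1 and 48.5 CPM with EWS-FLI1, both overlapping with mCherry. The EWS(YS37)-FLI1 call was lost without mCherry replicate 1 (edgeR adjusted p = 0.0837) and with length offsets (edgeR adjusted p = 0.0908).

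BAMBI, a receptor-like membrane protein without a kinase domain, interferes with receptor pairing. Its gene (ENSG00000095739.10, chromosome 10, 28677342 to 28682939, plus strand) gave 7.33, 8.22 and 7.31 CPM in mCherry cells and 10.5, 10.0 and 8.97 CPM with EWS-FLI1. It gave 8.25, 11.1 and 10.5 CPM with EWS-FLI1mut and 5.23, 5.32 and 5.75 CPM with EWS(YS37)-FLI1. The EWS(YS37)-FLI1 libraries were the lowest and the EWS-FLI1 libraries were above all mCherry libraries, but no difference from mCherry was called in the fit of all 18 libraries. The log2 differences were 0.37 ± 0.18 (edgeR adjusted p = 0.17) for EWS-FLI1, 0.39 ± 0.18 (edgeR adjusted p = 0.239) for EWS-FLI1mut and -0.49 ± 0.19 (edgeR adjusted p = 0.0732) for EWS(YS37)-FLI1. Fitted with mCherry alone, EWS(YS37)-FLI1 was called lower for BAMBI, at -0.49 (edgeR adjusted p = 0.0455).

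SKIL, also named SnoN, is a nuclear protein that binds SMAD complexes and represses their targets. The gene (ENSG00000136603.13, chromosome 3, 170357678 to 170396835, plus strand) gave 113, 115 and 115 CPM in mCherry cells, 122, 109.8 and 105 CPM with EWS-FLI1mut, 89.8, 106 and 93.5 CPM with EWS(YS37)-FLI1 and 135, 109.7 and 107 CPM with EWS-FLI1. The EWS(YS37)-FLI1 libraries were all below the mCherry libraries, with a log2 difference of -0.24 ± 0.08 (edgeR adjusted p = 0.0265). This call was lost with transcript length offsets and without any 1 of 4 libraries, mCherry replicate 2 or 3 or EWS(YS37)-FLI1 replicate 1 or 3 (edgeR adjusted p from 0.076 to 0.148 without a library, 0.185 with the offsets).

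**Figure D2:**
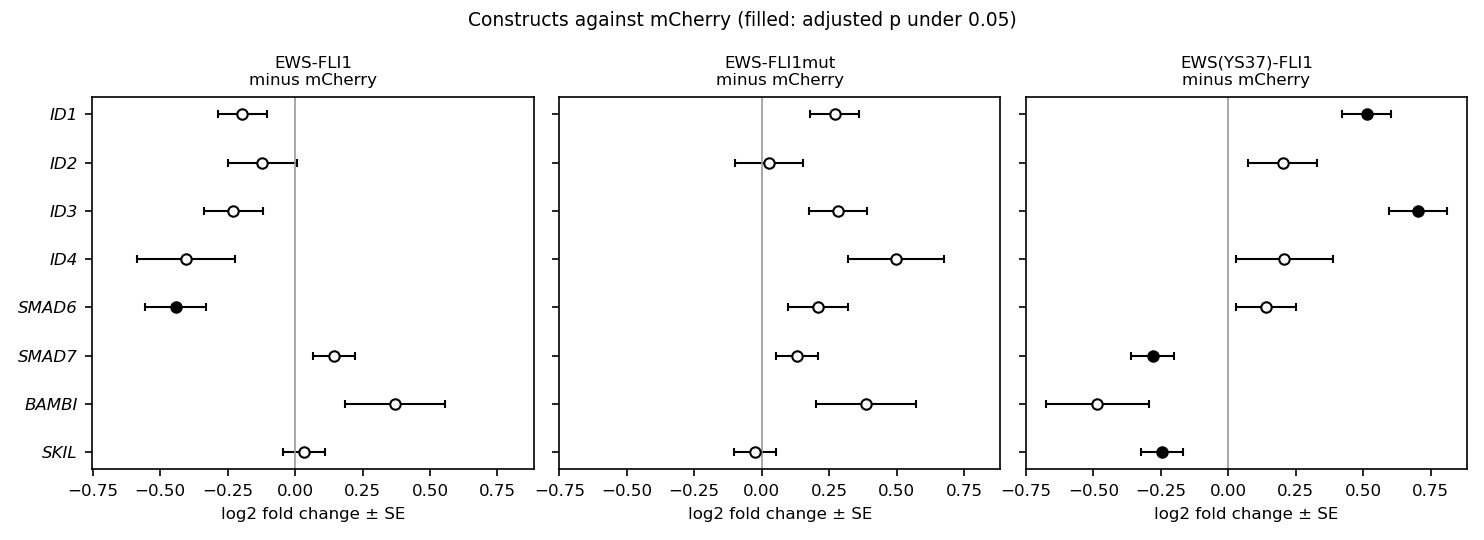
Log2 difference of each of the 8 genes from mCherry cells for the 3 constructs, with its standard error, from 1 edgeR fit of 18 libraries; filled points are called at an adjusted p under 0.05. SMAD6 is the filled point for EWS-FLI1, and ID1, ID3, SMAD7 and SKIL are filled for EWS(YS37)-FLI1.

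The constructs were also compared with each other. EWS-FLI1 cells had 4 of 8 genes called against EWS-FLI1mut cells, all lower, where 16.3% (8.78% higher, 7.51% lower) of all genes were called: ID1, ID3, ID4 and SMAD6. ID4 had the largest of these log2 differences, -0.90 ± 0.18 (edgeR adjusted p = 0.00104), followed by SMAD6 at -0.65 ± 0.11 (edgeR adjusted p = 0.00026), ID3 at -0.51 ± 0.11 (edgeR adjusted p = 0.0017) and ID1 at -0.47 ± 0.09 (edgeR adjusted p = 0.000805). The libraries of the 2 groups did not overlap for any of the 4. The share of all genes tested without overlap was not counted, so this is a description only. With length offsets SMAD6 was no longer called (edgeR adjusted p = 0.0987).

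Against EWS(YS37)-FLI1 cells, EWS-FLI1 cells had 7 of 8 genes called, where 31.1% (14.8% higher, 16.3% lower) of all genes were called. The 3 ID genes ID1, ID3 and ID4 and SMAD6 were lower, by log2 differences of -0.71 ± 0.09, -0.93 ± 0.11, -0.61 ± 0.18 and -0.58 ± 0.11, with edgeR adjusted p = 1.95e-06, 4.62e-07, 0.0124 and 0.000343. SMAD7, BAMBI and SKIL were higher, by 0.42 ± 0.08, 0.86 ± 0.19 and 0.28 ± 0.08, with edgeR adjusted p = 0.000205, 0.00117 and 0.00817. The ID4 and SKIL calls were each lost without EWS-FLI1 replicate 1 (edgeR adjusted p = 0.0985 and 0.1), and the ID4 call also without EWS(YS37)-FLI1 replicate 1 or 2. Length offsets ended the calls of ID4, SMAD6 and SKIL.

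EWS(YS37)-FLI1 against EWS-FLI1mut gave 5 of 8 calls, where 27.2% (14.5% higher, 12.7% lower) of all genes were called. ID3 was higher, by 0.42 ± 0.10 (edgeR adjusted p = 0.00419) on the log2 scale, as was ID1, by 0.24 ± 0.09 (edgeR adjusted p = 0.0472). BAMBI was lower, at -0.87 ± 0.19 (edgeR adjusted p = 0.00115), as were SMAD7, at -0.41 ± 0.08 (edgeR adjusted p = 0.000362), and SKIL, at -0.22 ± 0.08 (edgeR adjusted p = 0.0384). The ID1 call was lost when any 1 of the 6 libraries was left out (edgeR adjusted p from 0.0599 to 0.125), and with upper-quartile scaling, no scaling factors or length offsets. The SKIL call was lost with length offsets and without EWS-FLI1mut replicate 1 or 2 or EWS(YS37)-FLI1 replicate 1 or 3.

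The treated groups ask what LY2835219 did to the same genes in EWS-FLI1 cells. At 6 h, 7 of the 8 genes were called against untreated EWS-FLI1 cells, where 64.9% (31.6% higher, 33.3% lower) of all genes tested were called, so a call by itself sets a gene little apart at this time. Of these, 4 fell (SMAD6, BAMBI, ID4 and ID1) and 3 rose (SMAD7, SKIL and ID3). At 24 h, 5 of the 8 were called against the same untreated libraries, where 48% (23.3% higher, 24.6% lower) of all genes were called. SMAD6, BAMBI and SKIL were lower and ID1 and ID3 higher. The members' median log2 difference came to -0.10 at 6 h and 0.06 at 24 h, against -0.02 and 0.03 for all genes. Dropping the scaling factors shifted the median over all genes to -0.27 for 6 h minus untreated and to 0.31 for 24 h minus 6 h, so differences with the 6 h group are relative to the TMM scaling. Both times share the untreated libraries, for which no time is given. Drug exposure and time in culture therefore cannot be told apart.

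SMAD6 had the largest change of the 8 genes. Untreated EWS-FLI1 libraries gave 37.1, 55.0 and 43.5 CPM, 6 h libraries 2.69, 3.41 and 2.42 CPM and 24 h libraries 28.7, 27.5 and 20.4 CPM. The 3 groups did not overlap: every 6 h library was far below every other library of the series, and the 24 h libraries stood between. The 6 h log2 difference was -3.99 ± 0.17 (edgeR adjusted p = 1.28e-15), 15.9-fold lower, and 79 of the 16786 genes tested had a lower value. At 24 h it was -0.83 ± 0.12 (edgeR adjusted p = 4.1e-06), 1.77-fold lower.

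BAMBI went the same way at a lower level. It gave 10.5, 10.0 and 8.97 CPM untreated, 2.14, 1.39 and 1.68 CPM at 6 h and 5.52, 3.96 and 2.90 CPM at 24 h, with no overlap between any of the 3 groups. The log2 difference from untreated cells was -2.50 ± 0.22 (edgeR adjusted p = 5.09e-10) at 6 h, 5.65-fold lower, and -1.25 ± 0.19 (edgeR adjusted p = 9.24e-06) at 24 h, 2.38-fold lower. At 6 h, 353 of all genes tested had a lower value. The untreated counts behind BAMBI were 206, 191 and 167, and those at 6 h 35, 22 and 27.

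SMAD7, the other inhibitory SMAD, moved opposite to SMAD6 at 6 h. It gave 42.0, 50.1 and 48.5 CPM untreated, 83.5, 84.3 and 77.1 CPM at 6 h and 40.6, 45.1 and 39.2 CPM at 24 h. The 6 h libraries were the highest of the series for this gene and the 24 h libraries overlapped with the untreated ones. The log2 difference was 0.80 ± 0.08 (edgeR adjusted p = 2.53e-09) at 6 h, 1.74-fold higher, and -0.17 ± 0.08 (edgeR adjusted p = 0.076) at 24 h. The 6 h log2 ratio of mean TPM was smaller, at 0.47. The 24 h value was called as lower without EWS-FLI1 replicate 1 (edgeR adjusted p = 0.0165) and without 24 h replicate 2 (edgeR adjusted p = 0.0156).

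SKIL rose and then fell below its untreated level. It gave 135, 109.7 and 107 CPM untreated, 166, 164 and 179 CPM at 6 h and 67.2, 67.2 and 66.6 CPM at 24 h. No 2 of these groups overlapped, and the 24 h libraries were the lowest of the series. The log2 difference from untreated cells was 0.54 ± 0.08 (edgeR adjusted p = 1.83e-06) at 6 h and -0.81 ± 0.08 (edgeR adjusted p = 1.19e-08) at 24 h.

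Among the ID genes, ID1 and ID4 were lower at 6 h. ID1 gave 118, 162 and 139 CPM untreated, 102, 108 and 95.1 CPM at 6 h and 171, 193 and 151 CPM at 24 h. Its 6 h libraries were the lowest of the series, and the 24 h range overlapped with the untreated one. The log2 difference was -0.46 ± 0.09 (edgeR adjusted p = 0.000148) at 6 h and 0.29 ± 0.09 (edgeR adjusted p = 0.00966) at 24 h, and the 24 h call was lost without EWS-FLI1 replicate 1 (edgeR adjusted p = 0.0956) or 24 h replicate 2 (edgeR adjusted p = 0.139). ID4 gave 5.93, 11.2 and 9.99 CPM untreated, 3.85, 4.36 and 4.47 CPM at 6 h and 12.2, 12.1 and 10.8 CPM at 24 h. The 6 h libraries were below all others of the series, with a log2 difference of -1.09 ± 0.20 (edgeR adjusted p = 4.82e-05) at 6 h and 0.37 ± 0.18 (edgeR adjusted p = 0.0994) at 24 h. The 24 h value was called as higher without EWS-FLI1 replicate 2 (edgeR adjusted p = 0.0349).

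ID3 parted from ID1 at 6 h. It gave 40.4, 63.3 and 55.2 CPM untreated, 68.9, 69.9 and 70.7 CPM at 6 h and 86.1, 92.2 and 71.8 CPM at 24 h, with both treated groups above all untreated EWS-FLI1 libraries. The log2 difference was 0.40 ± 0.11 (edgeR adjusted p = 0.00262) at 6 h and 0.66 ± 0.11 (edgeR adjusted p = 2.2e-05) at 24 h. With no scaling factors the 6 h value was 0.16 (edgeR adjusted p = 0.198), so this call depends on the scaling. In TPM the gene gave 103 ± 20.2 untreated and 105 ± 1.88 at 6 h (SD, n = 3), a log2 ratio of 0.03, and the 6 h libraries lay within the untreated range. ID2 gave 8.48, 9.40 and 9.78 CPM untreated, 12.0, 9.60 and 11.4 CPM at 6 h and 11.7, 10.6 and 11.3 CPM at 24 h. Its differences were 0.25 ± 0.13 (edgeR adjusted p = 0.0885) at 6 h and 0.28 ± 0.13 (edgeR adjusted p = 0.073) at 24 h, neither called. The first was called without 6 h replicate 2 (edgeR adjusted p = 0.0393) and the second with upper-quartile scaling (edgeR adjusted p = 0.0433).

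The later time was compared with the earlier one directly. Between 24 h and 6 h, 7 of the 8 genes differed, where 62.9% (32.6% higher, 30.3% lower) of all genes did. SMAD6 was higher at 24 h by 3.17 ± 0.17 on the log2 scale, ID4 by 1.47 ± 0.20, BAMBI by 1.24 ± 0.23, ID1 by 0.75 ± 0.09 and ID3 by 0.26 ± 0.11. SKIL and SMAD7 were lower, with log2 differences of -1.34 ± 0.08 and -0.97 ± 0.08. The edgeR adjusted p was 0.0422 for ID3 and at most 4.41e-05 for the other six. The ID3 call was lost with DESeq2 (adjusted p = 0.0606), with length offsets, with the replicate number as a block (edgeR adjusted p = 0.0501), and when any 1 of 5 of the 6 libraries was left out (edgeR adjusted p from 0.0746 to 0.225). ID2 differed by 0.03 ± 0.13 (edgeR adjusted p = 0.859).

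**Figure D3:**
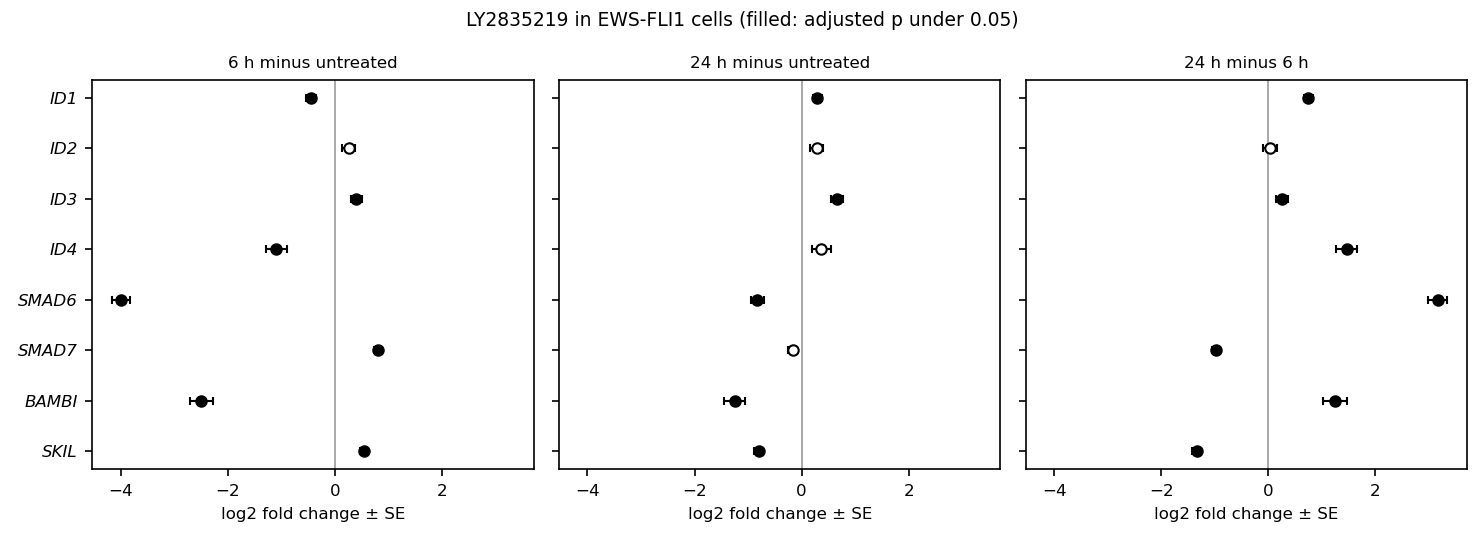
Log2 difference of each of the 8 genes in EWS-FLI1 cells under LY2835219, for 6 h and 24 h minus untreated and 24 h minus 6 h, with standard errors from the edgeR fit; filled points are called at an adjusted p under 0.05. SMAD6 lies at -3.99 at 6 h and -0.83 at 24 h, and SKIL lies above 0 at 6 h and below 0 at 24 h.

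The rest of the pathway was read from 10 lists with 124 genes, of which 101 were tested. These lists were chosen with earlier results of these data known, so their counts are a description only. The list counts below stand beside 31.6% of all genes tested higher and 33.3% lower at 6 h, and 23.3% and 24.6% at 24 h. At 6 h more ligands fell than rose in both branches. Of 8 TGF-beta and activin ligands 2 rose and 5 fell, and of 8 BMP ligands 2 rose and 5 fell, with median log2 differences of -1.03 and -0.80. BMP4, a main ligand upstream of the ID genes, went from 102 ± 3.46 CPM untreated (SD, n = 3) to 7.75 ± 1.45 CPM at 6 h and 35.6 ± 2.15 CPM at 24 h. Its log2 differences were -3.71 ± 0.09 (edgeR adjusted p = 1.66e-19) and -1.51 ± 0.07 (edgeR adjusted p = 7.23e-14). BMP7 fell by 1.19 ± 0.11 on the log2 scale at 6 h, BMP5 by 0.75 ± 0.10 and BMP6 by 1.41 ± 0.16, with edgeR adjusted p at most 1.12e-06. INHBA, which encodes the activin A subunit, ran the other way: 179, 141 and 137 CPM untreated, 455, 564 and 626 CPM at 6 h and 66.7, 62.6 and 74.1 CPM at 24 h. Its 6 h libraries were above and its 24 h libraries below all untreated ones, with log2 differences of 1.85 ± 0.11 (edgeR adjusted p = 3.74e-13) and -1.17 ± 0.11 (edgeR adjusted p = 5.47e-09). TGFB2 fell at both times, by 0.64 ± 0.08 and 0.56 ± 0.08 on the log2 scale, and TGFB1 was called only at 24 h, at -0.76 ± 0.08 (edgeR adjusted p = 1.53e-08), with 0.16 ± 0.07 (edgeR adjusted p = 0.0732) at 6 h. At 24 h, 5 of 8 TGF-beta and activin ligands were lower and 0 higher, and 4 and 1 of 8 BMP ligands.

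Receptors split at 6 h, with 6 of 15 higher and 6 lower, and with no scaling factors 4 and 8. TGFBR3, a coreceptor also known as betaglycan, fell from 7.61 to 1.54 CPM (log2 difference -2.29 ± 0.26, edgeR adjusted p = 5.27e-08), while TGFBR2, the receptor that binds TGF-beta first, rose by 0.42 ± 0.06 (edgeR adjusted p = 8.56e-07). At 24 h 7 of 15 were lower, BMPR2 among them at -0.60 ± 0.06 (edgeR adjusted p = 3.79e-08), and 1 was higher. Of 15 extracellular antagonists 3 rose and 4 fell at 6 h, 2 and 7 with no scaling factors, and 7 were lower at 24 h. Of 5 latency proteins 2 rose and 0 fell at 6 h, 1 and 2 with no scaling factors, and 4 were lower at 24 h. Of 12 intracellular inhibitors outside the 8 genes 6 rose and 3 fell at 6 h, 4 and 4 with no scaling factors, and 2 and 7 at 24 h. Of the 6 signalling SMADs, 2 rose and 2 fell at 6 h, and 1 and 4 with no scaling factors. SMAD3 gave 159, 173 and 159.6 CPM untreated, 62.8, 68.5 and 66.6 CPM at 6 h and 97.5, 96.8 and 81.8 CPM at 24 h. These groups did not overlap, and the log2 differences were -1.31 ± 0.07 (edgeR adjusted p = 2.2e-13) and -0.83 ± 0.07 (edgeR adjusted p = 1.15e-09). SMAD4, the common partner, was not called at 6 h, at -0.09 ± 0.06 (edgeR adjusted p = 0.209).

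Reported targets of TGF-beta mostly rose at 6 h: 12 of 16 were higher and 2 lower, with a median log2 difference of 0.84, and 11 and 3 with no scaling factors. PMEPA1, an inhibitor of SMAD activation counted above with the intracellular inhibitors, went from 634 ± 9.35 to 1683 ± 59.3 CPM at 6 h (SD, n = 3; log2 difference 1.41 ± 0.07, edgeR adjusted p = 3.62e-14). SNAI2 rose by 2.43 ± 0.10, ACTA2 by 2.93 ± 0.21 and TAGLN by 1.13 ± 0.09 on the log2 scale, with edgeR adjusted p at most 1.57e-10. Of these, SNAI2 and ACTA2 were named for the size of their change. The more abundant targets COL1A1 and FN1 gave 2687 ± 39.9 and 1546 ± 294 CPM untreated. At 6 h they gave 3016 ± 367 and 2062 ± 396 CPM, and for both genes the 6 h libraries overlapped with the untreated ones. CTGF, a matrix-associated target shared with other pathways, fell at both times, by 0.80 ± 0.06 and 2.65 ± 0.07 on the log2 scale. At 24 h the list was split, with 6 higher and 6 lower. SNAI2 and ACTA2 were still higher than in untreated cells, by 2.18 ± 0.10 and 2.06 ± 0.21, and TAGLN was lower, at -0.51 ± 0.09.

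Of 12 reported BMP targets, 3 rose and 5 fell at 6 h, and 2 and 7 with no scaling factors. At 24 h 1 was higher and 3 lower. ATOH8, a BMP-responsive helix-loop-helix gene, was listed at 0 counts in all 3 libraries at 6 h, against 49, 101 and 92 counts untreated and 19, 17 and 15 at 24 h. JUNB, which stands in both target lists, went from 83.0 ± 3.40 to 218 ± 12.8 CPM at 6 h (log2 difference 1.39 ± 0.09, edgeR adjusted p = 6.44e-12). RUNX2, the master factor of osteoblasts, was lower at 6 h, at -0.61 ± 0.08 (edgeR adjusted p = 1.96e-07). At 24 h its libraries gave 84.2, 90.7 and 76.6 CPM, above all untreated EWS-FLI1 libraries, of which the highest gave 73.95 CPM. Of 6 E proteins and related partners of the ID proteins, 0 were higher and 4 lower at 24 h. At 6 h 0 were higher and 5 lower, and 1 and 4 with transcript length offsets. TCF4 went from 98.6 ± 1.68 to 29.2 ± 1.64 CPM (log2 difference -1.75 ± 0.08, edgeR adjusted p = 2.31e-15) and TCF3 from 194 ± 5.05 to 121 ± 7.39 CPM (log2 difference -0.69 ± 0.07, edgeR adjusted p = 1.98e-08). TCF12 was called lower at 6 h, at -0.32 ± 0.05 (edgeR adjusted p = 6.06e-06), and higher with transcript length offsets, at 0.52 (edgeR adjusted p = 0.000184), so its direction is not settled by these counts.

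Over all 10 lists, 37 tested genes rose and 37 fell at 6 h and 13 rose and 49 fell at 24 h, where 31.6% and 33.3% of all genes tested rose and fell at 6 h and 23.3% and 24.6% at 24 h. Their median log2 difference came to 0.09 at 6 h and -0.21 at 24 h. The 24 h group of these genes thus had more lower than higher calls. The 6 h counts moved with the scaling, and with no scaling factors 27 rose and 49 fell.

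**Figure D4:**
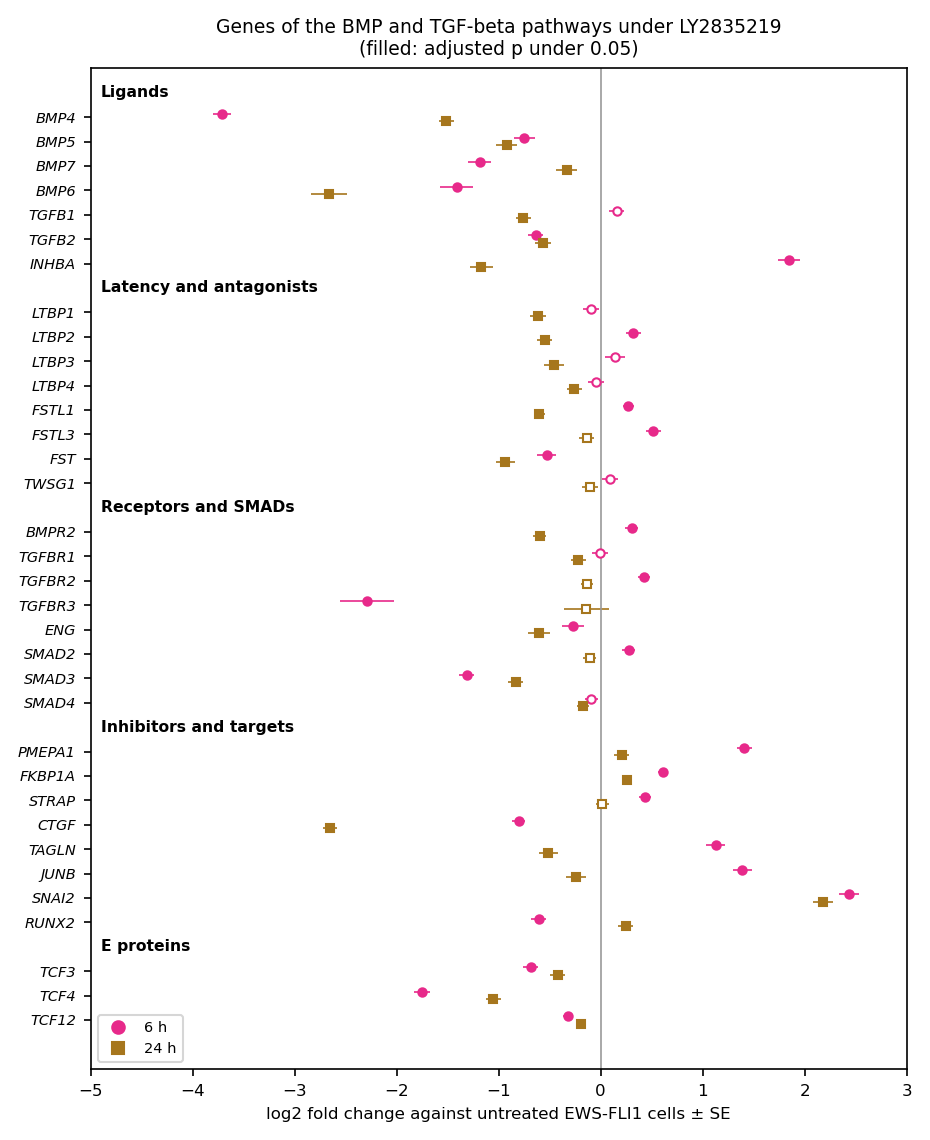
Log2 difference from untreated EWS-FLI1 cells of named genes of the BMP and TGF-beta pathway at 6 h and 24 h of LY2835219, with standard errors from the edgeR fit, in order of role. BMP4, SMAD3 and TCF4 lie below 0 at both times, and INHBA lies above 0 at 6 h and below 0 at 24 h.

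In untreated cells the same lists were read against mCherry, again as a description, since they were chosen with earlier results of these data known. With EWS-FLI1, 36 of the 101 tested genes were higher and 5 lower, where 11.1% and 9.95% of all genes were. Reported TGF-beta targets had 12 of 16 higher and 2 lower, among them TAGLN at 1.50 ± 0.10 (edgeR adjusted p = 1.94e-10) and CTGF at 1.03 ± 0.06 (edgeR adjusted p = 1.17e-10). All 5 latency proteins tested were higher, and 3 with length offsets. LTBP1, which ties latent TGF-beta to the matrix, differed by 0.66 ± 0.08 (edgeR adjusted p = 1.72e-06), and LRRC32, which holds it at the cell surface, went from 1.22 to 7.15 CPM (log2 difference 2.52 ± 0.33, edgeR adjusted p = 6.38e-06). BMP4 was lower with EWS-FLI1, at -0.53 ± 0.07 (edgeR adjusted p = 7.45e-06), and BMP6 higher, at 1.15 ± 0.16 (edgeR adjusted p = 1.24e-05). No signalling SMAD and no E protein of the lists was called in this comparison by edgeR.

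With EWS(YS37)-FLI1, 21 of the 101 genes were higher than in mCherry cells and 24 lower, where 11.5% and 10.2% of all genes were. SMAD3 was higher at 0.68 ± 0.07 (edgeR adjusted p = 1.32e-07), TGFB2 at 0.60 ± 0.08 (edgeR adjusted p = 2.93e-06) and ATOH8 at 2.29 ± 0.30 (edgeR adjusted p = 7.24e-06). LTBP1 was lower at -1.17 ± 0.08 (edgeR adjusted p = 3.12e-10), BMP4 at -0.45 ± 0.07 (edgeR adjusted p = 3.89e-05) and SOSTDC1, a secreted BMP antagonist, at -2.46 ± 0.33 (edgeR adjusted p = 6.81e-06). With EWS-FLI1mut, 17 were higher and 2 lower, where 3.53% and 3.62% of all genes were. CTGF was at 0.74 ± 0.06 (edgeR adjusted p = 1.12e-07) and the activin antagonist FST at 0.66 ± 0.09 (edgeR adjusted p = 3.02e-05).

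By transcript, SKIL was not uniform under LY2835219. SKIL-201 and SKIL-203 are annotated as protein-coding. SKIL-205, SKIL-208 and SKIL-210 are annotated as processed transcripts and not as protein-coding, so the gene's TPM is not coding RNA alone. SKIL-201, of 7155 bases, gave 14.7 ± 1.58 TPM untreated (SD, n = 3), 9.80 ± 0.822 at 6 h and 6.85 ± 1.96 at 24 h. SKIL-203, of 2757 bases, gave 9.75 ± 1.51, 21.7 ± 2.21 and 7.18 ± 1.57 TPM, and SKIL-208, of 554 bases, gave 6.68 ± 0.487, 15.2 ± 3.37 and 3.23 ± 0.520 TPM. SKIL-210, of 599 bases, gave 12.7 ± 1.60, 23.9 ± 3.41 and 6.08 ± 2.31 TPM. SKIL-205, of 594 bases, held the largest share of the gene in untreated EWS-FLI1 cells, 27.4%, and gave 18.1 ± 1.05, 18.5 ± 4.20 and 11.4 ± 4.12 TPM. At 6 h, in TPM, SKIL-203, SKIL-208 and SKIL-210 were above their untreated range and SKIL-201 below it, while SKIL-205 overlapped with it. TPM carries no TMM factors. For ID1, ID2, ID3, ID4, SMAD7 and BAMBI the 6 h log2 difference was lower in TPM than in the fit, and for SMAD6 and SKIL higher. The part of this scaling in the SKIL-201 levels was not tested. The share of SKIL-201 in the gene's TPM went from 22.2% to 9.51% and back to 18.7%. No transcript test was run.

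The main SMAD6 transcripts, protein-coding SMAD6-201 and the processed transcript SMAD6-205 of 1 exon, were low together. SMAD6-201 gave 8.29 ± 1.98 TPM untreated, 0.282 ± 0.100 at 6 h and 4.17 ± 0.681 at 24 h, and SMAD6-205 gave 5.70 ± 1.01, 0.309 ± 0.0215 and 3.18 ± 0.806 TPM. For BAMBI, the retained-intron transcript BAMBI-202 held 17.9% of the gene's TPM in mCherry cells (10.3% to 22.9% over the libraries) and 41.7% with EWS-FLI1mut (38.6% to 46.1%), and the ranges of these 2 groups did not overlap. It held 22.6%, 21.6% and 19.3% in EWS-FLI1 cells untreated, at 6 h and at 24 h. ID1-201, annotated with 1 exon, held 8.76% of ID1 in mCherry cells, 12.0% with EWS-FLI1mut, 12.6% with EWS(YS37)-FLI1 and 7.94% with EWS-FLI1. Shares of transcripts that overlap each other rest on how kallisto divided shared reads.

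**Figure D5:**
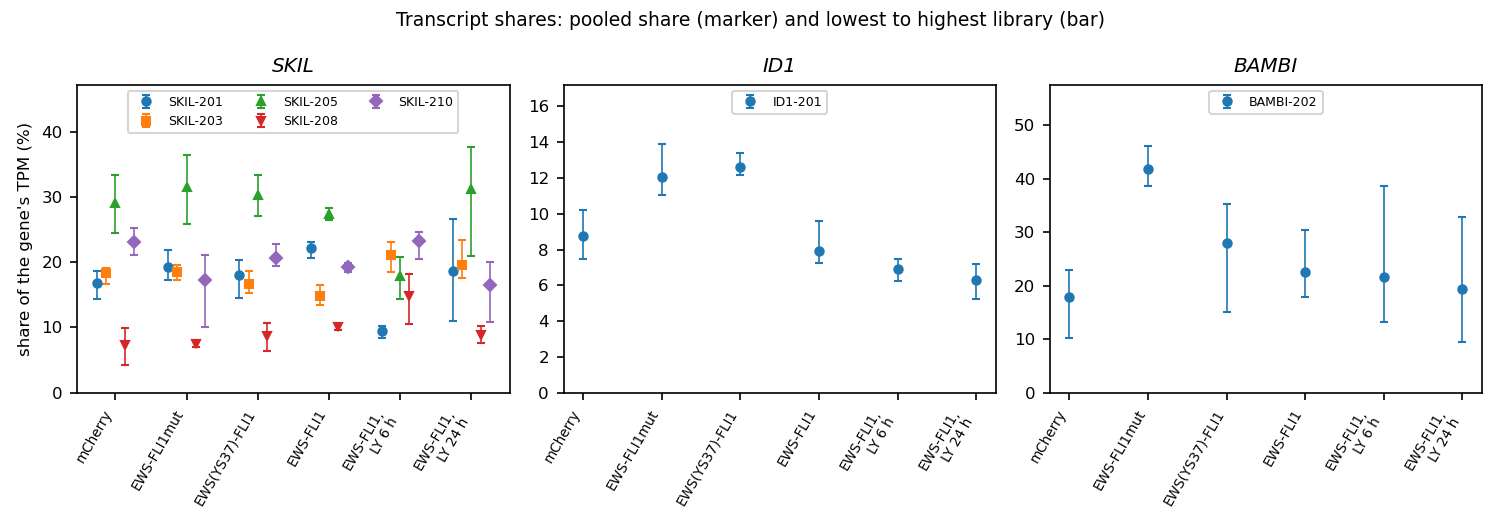
Share of the gene's TPM, in percent, held by transcripts of SKIL, ID1 and BAMBI in the 6 groups; markers are the pooled share and bars run from the lowest to the highest library. SKIL-201 falls from 22.2% in untreated EWS-FLI1 cells to 9.51% at 6 h, and BAMBI-202 is highest in EWS-FLI1mut cells.

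For each member, the genes with the most similar course were sought among 11442 protein-coding genes, by the root mean square difference of their 5 log2 differences from mCherry. ID1 was closest to SHANK3 (0.066) and MCIDAS (0.088), ID2 to YIF1B (0.035) and RBM28 (0.036), and ID3 to MELTF (0.090) and SYTL1 (0.130). SMAD7 was closest to ELAC1 (0.078) and KIAA0232 (0.085), SKIL to SLC2A1 (0.126) and IDI1 (0.128), and BAMBI to SETBP1 (0.163) and ITGB8 (0.165). ID4 had SEPT3 at 0.144 and PLEKHH3 at 0.179. SMAD6 had the most distant neighbours of the 8, HRCT1 at 0.321 and LZTS1 at 0.354. The likeness is over 6 groups and is given as a description.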

How the data were processed

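The authors deposited 1 transcript table per library for 18 libraries of poly(A) RNA. Per the file headers, its columns are estimated counts from kallisto (the expected count of a transcript, without normalization), TPM as computed by the authors, and effective lengths in bases, a unit of another kind. The submitters' processing notes name CASAVA, kallisto 0.46 and hg38. The transcript set, index options and strandedness are not given in the sources used here. Each table lists 188753 transcripts, of which 169797 matched GENCODE 29 by Ensembl identifier, to 35579 genes, and unmatched transcripts, which held 2.59% to 2.74% of each library, were dropped.

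The estimated counts of a gene were added up, rounded and tested with edgeR 4.0.16 (R 4.3.3). TMM factors were 0.856 to 1.057, low genes were removed with filterByExpr, and a single quasi-likelihood model of the 18 libraries had 12 residual degrees of freedom and a biological coefficient of variation of 8.77%. P-values were adjusted by Benjamini-Hochberg over the 16786 genes of each of 9 comparisons, and genes with an adjusted p under 0.05 are called. The ± after a log2 difference is its standard error (the absolute log2 value over the square root of the F statistic), and the ± after a level is the SD. Levels are TMM-scaled CPM, or TPM summed per gene. The scripts were tested on simulated data. Replicate numbers, which the labels tie to no shared batch, were taken to pair libraries where all 3 same-numbered pairs deviated together from their group means (r over 0.1). This held in 2 of 9 comparisons, 24 h against 6 h (r from 0.212 to 0.493) and EWS-FLI1mut against mCherry (0.203 to 0.306). The counts of calls come from the model without a replicate term, also in these comparisons. With the block, ID3 at 24 h against 6 h was not called (edgeR adjusted p = 0.0501). Intervals from counting were not used.

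Members and gene lists were chosen with earlier results of these data known. Named genes are the 8 members, the 3 pathway genes of each list with the highest TPM, and up to 3 further called pathway genes per comparison with the largest change and at least 5 CPM. Not every one is printed, and the result of 1 gene is not reported here. The count of GTCT boxes was added after the motif list. The alternatives were DESeq2 1.42.0, upper-quartile scaling, no scaling factors, no filter on low counts, transcript length offsets, a replicate block, fits of the compared groups alone, each library left out in turn, and gene TPM.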

Additional observations from a re-analysis of the deposited data

Results flagged for a closer look

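The difference from untreated cells was not the same at 24 h and 6 h for 7 of the 8 genes. The test compared the 24 h with the 6 h libraries, so the shared untreated group drops out. No control is matched to either time, so drug exposure and time in culture cannot be told apart. With the replicate number as a block, ID3 was not called (edgeR adjusted p = 0.0501). On the log2 scale, the difference at 24 h minus that at 6 h was 0.75 for ID1, 0.26 for ID3, 1.47 for ID4, 3.17 for SMAD6 and 1.24 for BAMBI. It was -0.97 for SMAD7 and -1.34 for SKIL. SKIL stood above its untreated level at 6 h and below it at 24 h, and ID1 below and then above, while SMAD6 and BAMBI were below at both times. ID2 had no such difference at the threshold, at 0.03 ± 0.13 (edgeR adjusted p = 0.859). Where 62.9% of all genes tested differ between these times, a difference of this kind is common.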

How the results depend on the processing

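Of the 40 called member values, 28 kept their direction and call under every alternative run in edgeR or DESeq2, and none of the 40 changed direction. Of the other 32, which were not called, 18 single settings gave a call. In gene TPM, 4 of the 72 member differences changed sign, none of them called: ID2 for EWS-FLI1mut against mCherry (-0.0010) and at 6 h (-0.12), and SKIL for EWS-FLI1 against mCherry (-0.14) and EWS-FLI1mut (-0.11). TPM carries no TMM factors. At 6 h against untreated cells, the log2 value in TPM was lower than in the fit for ID1, ID2, ID3, ID4, SMAD7 and BAMBI. It was higher for SMAD6 and SKIL. Of the 72 differences, 29 moved by more than the spread between replicates, and 9 of the 40 called values by over 1.5 times, ID3 at 6 h (0.40 to 0.03) the most. The other eight were SMAD7 at 6 h (0.80 to 0.47), ID1 at 6 h (-0.46 to -0.82), ID3 at 24 h against 6 h (0.26 to 0.54), ID1 (0.24 to 0.12) and SMAD7 (-0.41 to -0.68) for EWS(YS37)-FLI1 against EWS-FLI1mut, SMAD7 for EWS(YS37)-FLI1 against mCherry (-0.28 to -0.45), and SMAD7 (0.42 to 0.70) and SKIL (0.28 to 0.15) for EWS-FLI1 against EWS(YS37)-FLI1. Transcript length offsets made the most difference: the genes called went from 3536 to 1698 (EWS-FLI1 against mCherry), 1200 to 360 (EWS-FLI1mut against mCherry), 3645 to 1964 (EWS(YS37)-FLI1 against mCherry), 2734 to 1262 (EWS-FLI1 against EWS-FLI1mut), 5223 to 3001 (EWS-FLI1 against EWS(YS37)-FLI1) and 4565 to 2574 (EWS(YS37)-FLI1 against EWS-FLI1mut), and the members called, in the same order where they moved, were 0 for EWS-FLI1 and 2 for EWS(YS37)-FLI1 against mCherry, 4 for EWS-FLI1 against EWS(YS37)-FLI1 and 3 for EWS(YS37)-FLI1 against EWS-FLI1mut. With no filter on low counts the members called against mCherry were 3 for EWS-FLI1 and 3 for EWS-FLI1mut. For EWS-FLI1mut they were 1 with DESeq2, 1 with no scaling factors and 3 when only the 2 groups were fitted. The cause was not tested. Leaving out 1 library in turn gave 0 to 3 members for EWS-FLI1 against mCherry, 3 to 4 for EWS(YS37)-FLI1 against EWS-FLI1mut, and 667 to 1012 genes for EWS-FLI1mut against mCherry, each with fewer samples.

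The log2 differences that took the other sign were, among the members, all of values not called. SKIL for EWS-FLI1 against mCherry was -0.15 with transcript length offsets and from -0.080 to 0.11 without 1 library. SKIL for EWS-FLI1mut against mCherry was 0.00050 with no scaling factors and from -0.092 to 0.020 without 1 library. ID2 for EWS-FLI1mut against mCherry was -0.064 with transcript length offsets and from -0.072 to 0.093 without 1 library. SMAD7 for EWS-FLI1 against EWS-FLI1mut was -0.011 with upper-quartile scaling, -0.028 with no scaling factors and from -0.017 to 0.090 without 1 library. BAMBI for EWS-FLI1 against EWS-FLI1mut was 0.053 with transcript length offsets and from -0.12 to 0.068 without 1 library. SKIL for EWS-FLI1 against EWS-FLI1mut was -0.046 with transcript length offsets and from -0.055 to 0.14 without 1 library. ID2 for EWS-FLI1 LY 24 h against EWS-FLI1 LY 6 h was -0.0044 with DESeq2 and from -0.067 to 0.088 without 1 library. Among pathway genes, 168 of 248 called values kept their call throughout and 7 turned: LTBP4 for EWS-FLI1 LY 24 h against EWS-FLI1 LY 6 h (0.045, no scaling factors), SMAD2 for EWS-FLI1 LY 6 h against EWS-FLI1 (-0.056, transcript length offsets), SNAI2 for EWS-FLI1 LY 24 h against EWS-FLI1 LY 6 h (0.0038, no scaling factors), TCF12 for EWS-FLI1 LY 6 h against EWS-FLI1 (0.52, transcript length offsets), TCF12 for EWS-FLI1 LY 24 h against EWS-FLI1 LY 6 h (-0.67, transcript length offsets), TGFBR1 for EWS-FLI1 LY 24 h against EWS-FLI1 LY 6 h (0.050, no scaling factors) and TWSG1 for EWS-FLI1 LY 24 h against EWS-FLI1 LY 6 h (0.063, no scaling factors).

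With no scaling factors, the split of higher and lower calls moved by more than 10 percentage points: 3535 and 7450 at 6 h (5304 and 5586 with TMM), 7665 and 3228 at 24 h against 6 h (5465 and 5089), 742 and 416 for EWS-FLI1mut against mCherry (592 and 608), 1602 and 2138 for EWS(YS37)-FLI1 against mCherry (1937 and 1708), 1118 and 1729 for EWS-FLI1 against EWS-FLI1mut (1474 and 1260) and 1702 and 2797 for EWS(YS37)-FLI1 against EWS-FLI1mut (2434 and 2131).

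By replicate number, the correlation of deviations from the group means over 45 same-numbered pairs of libraries and 5000 genes ran from -0.407 to 0.493 with a median of 0.046, 19 were over 0.1, and 10 of the 18 libraries correlated best with their own number, a hint from the data and not from the design. With the replicate block 3579 genes were called for EWS-FLI1 against mCherry in place of 3536, and the block changed no member call other than that of ID3 at 24 h against 6 h (edgeR adjusted p = 0.0501). Averaged over the 18 libraries, BAMBI, ID2 and ID4 had the lowest counts of the 8 genes, which limits how small a difference could be seen for them.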
